A study of Homo sapiens with 9 samples.

Results

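The genes described here are 8 parts of the signalling machinery by which blood cell receptors without an enzyme of their own pass a signal inwards: HCST, TYROBP, FCER1G, HSH2D, SYK, LYN, BTK and PLCG2. They were found by their gene symbol, each represented by its RefSeq transcript with the highest total count, and make up 8 of the 25680 gene symbols measured and 8 of the 14199 that passed the filter on low counts. They were chosen by earlier fold changes of these same libraries, in which HCST and HSH2D differed between SH3 and the other groups, so their values in the comparisons between groups are a description and carry no test. Messenger RNA was sequenced from SKNO-1, a human acute myeloid leukaemia line with the RUNX1-RUNX1T1 fusion that grows with GM-CSF. There were 9 libraries in 3 groups of 3: EV, the control, and SH2 and SH3, each carrying a different short hairpin RNA against ASXL2. The labels do not spell out EV, and the study describes a control hairpin. Every group holds replicates numbered 1, 13 and 25, and the labels do not say what a number stands for or whether the cultures were separate, so p values measure the spread between these libraries. A single cell line was used, all groups carry the fusion, and the extraction text in the labels speaks of sorted marrow cells instead of this line.

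HCST, also called DAP10, is a small membrane chain that carries a phosphoinositide 3-kinase docking motif and serves the receptor NKG2D. TYROBP, also called DAP12, and FCER1G, the Fc receptor gamma chain, carry an immunoreceptor tyrosine-based activation motif (ITAM), which is phosphorylated by SRC family kinases such as LYN and then bound by the kinase SYK. Adaptors and the TEC family kinase BTK then bring the signal to PLCG2, the phospholipase that releases calcium and activates protein kinase C, while phosphatases and inhibitory receptors oppose it. HSH2D is an adaptor of blood cells with an SH2 domain, a fold that binds phosphorylated tyrosine. The group label SH2 has no relation to this domain. In myeloid cells the chains serve Fc receptors, TREM proteins and paired receptors, and in natural killer cells they serve activating receptors.

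Totals with 1 transcript per gene were 27714431 to 35406063 counts, where 3 counts, the least taken as a signal, correspond to between 0.0847 and 0.108 CPM (counts scaled to a fixed library total). ASXL2 was at 67.9, 67.9 and 74.7 CPM in EV numbers 1, 13 and 25, at 30.4, 36.2 and 36.2 CPM in SH2 and at 26.9, 29.1 and 41.1 CPM in SH3, and every hairpin library was below every control. As a share of the same-numbered control, 0.488 ± 0.0426 remained in SH2 and 0.458 ± 0.0813 in SH3 (SD, n = 3). The SH3 library numbered 1 stands apart: a chi-square statistic of its counts per degree of freedom against its partners was 124 to 134, and over the other pairs within groups 18.1 to 55.9. Of 10 markers of such leukaemia cells, 8 reached 1 CPM, and CD34 was among those that did not. Of 11 measured markers of natural killer and T cells, only NKG7 reached 1 CPM and 4 (CD3E, CD3G, KLRD1 and NCR1) had no count in any library.

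All 8 genes were detected in every library. On the scale of CPM per kilobase of the canonical transcript, the EV levels were 64.0 ± 5.38 for BTK, 54.8 ± 9.93 for HCST, 38.5 ± 1.76 for SYK, 17.0 ± 4.80 for TYROBP, 16.1 ± 3.39 for LYN, 12.6 ± 0.274 for PLCG2, 9.83 ± 1.76 for FCER1G and 3.29 ± 1.52 for HSH2D (SD, n = 3). BTK and HCST differed by less than the larger SD of the pair, as did TYROBP and LYN, and the other neighbours in this order differed by more. HCST, a chain best known from natural killer and T cells, was thus among the most abundant of the 8 per length in a line where the markers of those cells were close to 0. In counts, the members spanned 107 for HSH2D in its lowest library to 7185 for SYK in its highest, so sampling error weighs most on HSH2D, FCER1G and TYROBP.

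HCST and TYROBP are neighbours whose ends face each other. HCST lies at chr19:36393431-36395279 on the plus strand and TYROBP at chr19:36395303-36399197 on the minus strand (GRCh37, GENCODE), both protein-coding, which leaves a gap of 23 bases between the annotated ends. Another annotated gene, ENSG00000280194, lies on the opposite strand at chr19:36392463-36394757 and overlaps the HCST span from its start. The study's methods give unstranded libraries in a text that speaks of sorted mouse cells. If that holds for these libraries, reads in that overlap or near the gap cannot be given to a strand. The gap, shown because of this, and the 250 bases before each RefSeq start, shown because the levels of both genes moved together, read 5′ to 3′ on the strand named. The promoters come from RefSeq on GRCh38.p14.
HCST-TYROBP gap, plus strand, GRCh37 chr19:36395280-36395302: atcagcccaaggatctggcataa
HCST, plus strand, GRCh38.p14 chr19:35902279-35902528: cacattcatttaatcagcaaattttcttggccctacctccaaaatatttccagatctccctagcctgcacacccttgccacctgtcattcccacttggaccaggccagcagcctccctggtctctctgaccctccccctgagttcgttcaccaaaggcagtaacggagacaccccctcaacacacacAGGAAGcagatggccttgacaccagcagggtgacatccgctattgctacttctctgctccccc
TYROBP, minus strand, GRCh38.p14 chr19:35908296-35908545: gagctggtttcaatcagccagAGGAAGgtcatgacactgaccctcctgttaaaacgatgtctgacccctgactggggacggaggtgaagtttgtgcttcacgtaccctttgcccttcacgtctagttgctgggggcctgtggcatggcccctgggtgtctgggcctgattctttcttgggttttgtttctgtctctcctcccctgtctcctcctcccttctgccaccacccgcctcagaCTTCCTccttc
Capitals mark matches, on either strand, to the letters AGGAAG, a core bound by ETS factors such as PU.1: there is 1 in HCST, starting 63 bases before the start, and there are 2 in TYROBP, starting 229 and 11 bases before it. Of the 35116 promoter windows of this length, 28.7% hold this motif. The RUNX letters TGTGGT, present in 11.0% of the windows, and the AP-1 letters TGANTCA, present in 6.57%, were also searched and neither is in these 2 windows. Of the 6 members with an entry, FCER1G alone held TGTGGT, starting 42 bases before its start, and BTK had the most AGGAAG matches, with 3. These matches describe letters and not binding.

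HCST was higher in SH3 than in both other groups at each number. Its level was 35.9, 31.9 and 24.9 CPM in EV numbers 1, 13 and 25, 38.7, 29.8 and 21.8 CPM in SH2 and 59.4, 41.6 and 33.6 CPM in SH3. Without regard to number the groups overlap, since SH3 number 25 lies below EV number 1 and SH2 number 1. Within a number, where each group has 1 library, SH3 exceeded SH2 by 0.62, 0.48 and 0.62 on the log2 scale, a ratio of 1.49 ± 0.0815 (SD, n = 3). It exceeded EV by 0.72, 0.38 and 0.43, a ratio of 1.44 ± 0.188 (SD, n = 3). SH2 and EV differed in both directions, by 0.11, -0.10 and -0.19. The 2 transcripts listed for HCST held identical counts. In bulk RNA a larger number of cells of a type and more RNA per cell cannot be told apart. Beside this, the summed level of the natural killer and T cell markers was 0.660 to 0.816 CPM in EV, 0.520 to 1.03 in SH2 and 1.16 to 1.36 in SH3, and that of the monocyte and macrophage markers 2.23 to 3.80, 2.67 to 4.25 and 3.09 to 7.25 CPM. Every SH3 sum of the natural killer and T cell markers was thus above every sum in EV and SH2. These sums mostly follow NKG7, at 0.983 to 1.09 CPM in SH3 and with only 9 to 34 counts over all libraries. No sum without NKG7 was made, so nothing is read about these markers as a set. Their part in the result was not tested.

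**Figure D1:**
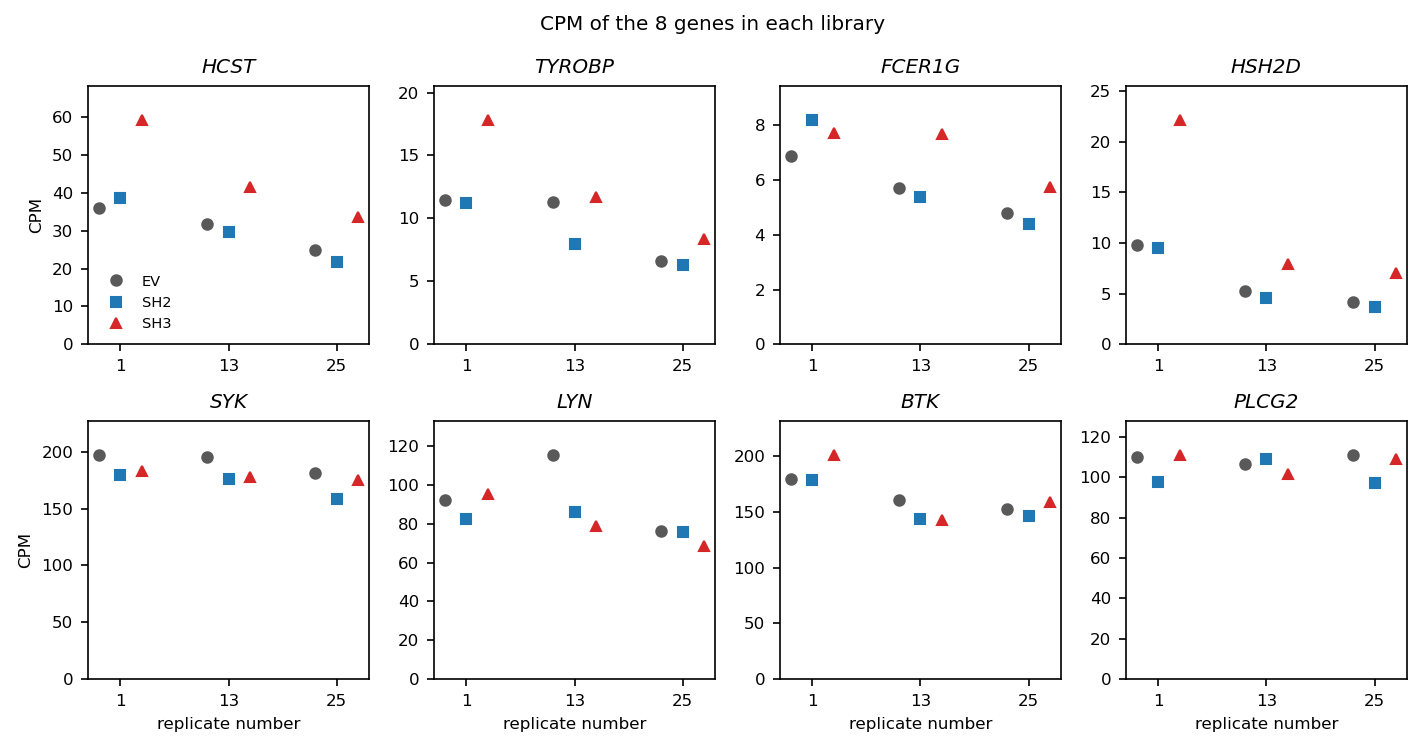
CPM of the 8 genes (vertical axes from 0, a scale of its own for each gene) in each of the 9 libraries, by replicate number on the horizontal axis, with EV as grey circles, SH2 as blue squares and SH3 as red triangles, 1 point per library. HCST, TYROBP and HSH2D have the SH3 point on top at numbers 1, 13 and 25, while SYK and PLCG2 lie close together.

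HSH2D showed the largest separation between the hairpins among the 8 genes. It was at 9.82, 5.27 and 4.20 CPM in EV, 9.51, 4.58 and 3.71 CPM in SH2 and 22.2, 7.87 and 6.99 CPM in SH3, so that SH3 number 1 was more than all others and the other SH3 libraries fell between the numbers 1 and 13 of the remaining groups. Within numbers SH3 exceeded SH2 by 1.22, 0.77 and 0.90 on the log2 scale, a ratio of 1.98 ± 0.316, and EV by 1.17, 0.57 and 0.73, a ratio of 1.80 ± 0.401 (SD, n = 3). SH2 was below EV by 0.05, 0.20 and 0.18. HSH2D lies at chr19:16244838-16269386 on the plus strand (GRCh37), and its first 207 bases overlap the annotated end of RAB8A on the same strand. The long noncoding gene ENSG00000269243, on the opposite strand, also overlaps HSH2D from its start to position 16250702. RAB8A, a small GTPase of vesicle transport, was at 112 to 168 CPM, and its log2 fold change of SH3 against SH2 was 0.09 without the block. The ratio of group means of SH3 to SH2 was 2.08 to 2.10 for 3 of the 4 HSH2D transcripts and 1.76 for the other.

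TYROBP was likewise highest in SH3 at every number, and lowest in SH2. Its level was 11.5, 11.3 and 6.60 CPM in EV, 11.3, 7.96 and 6.31 CPM in SH2 and 17.8, 11.7 and 8.34 CPM in SH3. SH3 exceeded SH2 by 0.66, 0.56 and 0.40 within numbers on the log2 scale, and EV by 0.63, 0.05 and 0.33, so that the control and SH3 libraries numbered 13 were nearly level. FCER1G, the third membrane chain, was at 6.88, 5.71 and 4.80 CPM in EV, 8.20, 5.39 and 4.40 CPM in SH2 and 7.73, 7.69 and 5.75 CPM in SH3. It was above EV in SH3 at every number, by 0.17, 0.42 and 0.26 on the log2 scale, yet below SH2 at number 1. The gene for the Fc receptor gamma chain thus stood apart from HCST and TYROBP at number 1 only, and its counts of 127 to 250 are the lowest of the membrane chains. Its end overlaps the annotated gene AL590714.1 on the same strand.

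The 3 kinases and PLCG2 differed less between SH3 and SH2 than HCST, TYROBP and HSH2D did. SYK was at 198, 195 and 181 CPM in EV, 179, 176 and 159 CPM in SH2 and 183, 178 and 175 CPM in SH3. Every SH2 library was below every EV library, by 0.16 ± 0.0282 on the log2 scale within numbers (SD, n = 3), and SH3 was below EV by 0.0983 ± 0.0449. BTK was at 180.1, 161 and 153 CPM in EV, 179, 144 and 146 CPM in SH2 and 202, 143 and 159 CPM in SH3, with overlap between all groups. LYN was highest in EV number 13, at 116 CPM, and otherwise between 68.6 and 95.2 CPM, and its SH3 libraries lay above SH2 at number 1 and below it at 13 and 25. PLCG2 varied least, at 110.1, 107 and 111 CPM in EV, 97.7, 109 and 96.9 CPM in SH2 and 111, 101 and 109 CPM in SH3. The mean within-number difference of SH3 and SH2 was 0.06 for SYK, -0.02 for LYN, 0.10 for BTK and 0.08 for PLCG2, against 0.57 for HCST, 0.54 for TYROBP and 0.96 for HSH2D. Against EV, the mean within-number differences of these kinases and PLCG2 lay between -0.22 and 0.02 under both hairpins. LYN had the widest single differences, of -0.42 in SH2 and -0.56 in SH3 at number 13.

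**Figure D2:**
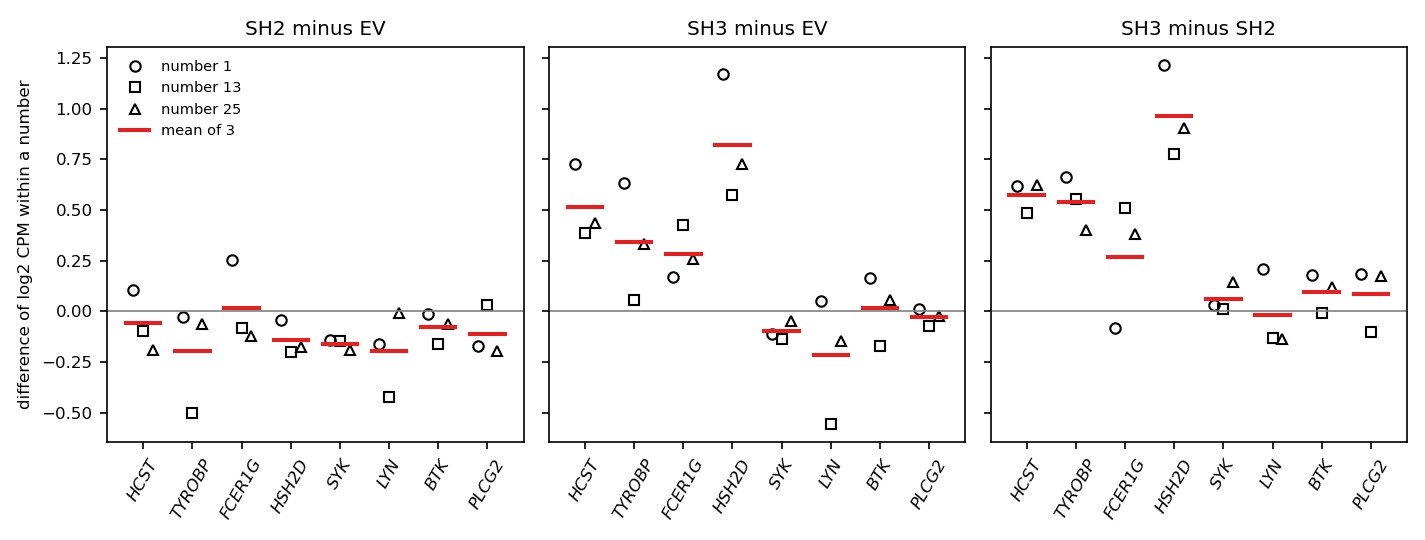
Difference of log2 CPM between groups within a replicate number (vertical axis) for the 8 genes, with circles, squares and triangles for numbers 1, 13 and 25 and a red bar for their mean (n = 3). HCST, TYROBP and HSH2D lie above 0 at all numbers for SH3 minus SH2, with means of 0.57, 0.54 and 0.96. The means of the kinases and PLCG2 lie between -0.02 and 0.10 there.

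Counted over the 8 genes, 3 (HCST, TYROBP and HSH2D) were highest in SH3 at every number, a pattern held by 6.75% of all genes tested. SH3 was above SH2 at every number for 4 genes, those 3 and SYK, where 16.3% of all genes were, and above EV for HCST, TYROBP, FCER1G and HSH2D, where 20.2% were. SH2 was below EV at every number for 5 genes (TYROBP, HSH2D, SYK, LYN and BTK), a pattern of 24.5% of genes. The comparisons against EV share the control libraries, and those of SH3 share the SH3 libraries, so these counts are not independent of each other, and nothing is read from those that chose the genes.

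Across all genes, the edgeR quasi-likelihood test without the replicate number called none of the 14199 in any of these comparisons (0% each). Before adjustment, p was under 0.05 for 762 genes in SH2 against EV, 723 in SH3 against EV and 293 in SH3 against SH2, and DESeq2 called 25, 26 and 11. With a block for the replicate number, the same test called 0.282%, 0.416% and 0.106% of genes in these comparisons. No call is read for the 8 genes, which these comparisons chose. Fitted without the block, the log2 fold change of SH3 against SH2 was 0.58 for HCST (SE 0.25), 1.06 for HSH2D (SE 0.53) and 0.57 for TYROBP (SE 0.33), and with the block it was 0.58 (SE 0.08), 0.99 (SE 0.13) and 0.55 (SE 0.13). Without the SH3 library numbered 1, the values without the block were 0.32, 0.33 and 0.24 for HCST, HSH2D and TYROBP. That fit keeps EV and SH2 number 1, where these genes were higher than at 13 and 25, so it mixes number with group. With all number 1 libraries left out of the block fit the values were 0.55, 0.84 and 0.48.

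The replicate number itself gave a comparison that had not chosen the genes, and 5 of the 8 passed the test in it. Against numbers 13 and 25, with the group in the model, libraries numbered 1 held more HSH2D (log2 fold change 1.30, SE 0.11, adjusted p = 8.76e-05 by edgeR), TYROBP (0.65, SE 0.11, adjusted p = 0.00136), HCST (0.54, SE 0.07, adjusted p = 0.000482), FCER1G (0.45, SE 0.12, adjusted p = 0.0101) and BTK (0.30, SE 0.06, adjusted p = 0.00361). These are 5 of the 8 genes, where 24.1% of all genes were called higher and 22.2% lower, and number 1 was the highest in all 3 groups for these 5 and for SYK, a pattern of 23.1% of genes. LYN (0.13, SE 0.09), SYK (0.07, SE 0.05) and PLCG2 (0.01, SE 0.06) did not pass, with adjusted p of 0.279, 0.278 and 0.952. Without the SH3 library numbered 1 the values were 1.13 for HSH2D, 0.53 for TYROBP, 0.47 for HCST, 0.57 for FCER1G and 0.25 for BTK, all past the threshold, so the higher level at number 1 was also there in the other libraries. FCER1G did not pass without SH2 number 1.

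Libraries numbered 25 held less HCST and TYROBP than those numbered 13. HCST had a log2 fold change of -0.37 (SE 0.08, adjusted p = 0.0295 by edgeR) and TYROBP one of -0.54 (SE 0.13, adjusted p = 0.0385), where 3.1% of all genes were called lower and 2.77% higher. Both calls were lost when EV 13, EV 25, SH2 13, SH2 25 or SH3 25 was left out, and that of TYROBP also without SH2 1, with fold changes of -0.42 to -0.33 for HCST and -0.61 to -0.38 for TYROBP over the 9 libraries left out in turn. The values of the others were -0.34 for LYN, -0.32 for FCER1G, -0.26 for HSH2D and -0.09 for SYK, with adjusted p of 0.0869, 0.192, 0.279 and 0.411, and BTK and PLCG2 were at 0.03 and -0.0026.

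**Figure D3:**
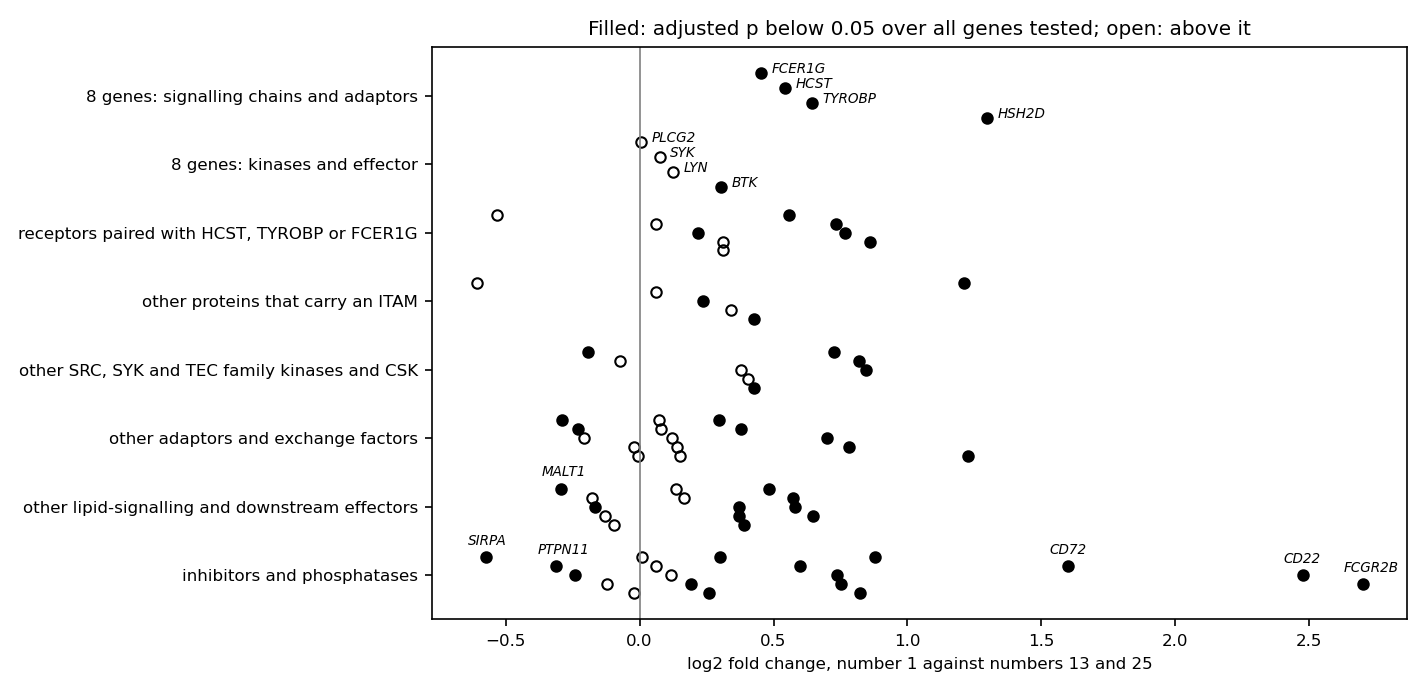
Log2 fold change of libraries numbered 1 against those numbered 13 and 25 (horizontal axis), with the group in the model, for the 8 genes (top 2 rows) and 71 other genes of the pathway by list, 1 point per gene, filled where the adjusted p over all genes tested is below 0.05. The 4 chains and adaptors are all filled and right of 0, SYK, LYN and PLCG2 are open, and FCGR2B, CD22 and CD72 lie farthest right.

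The receptors that use these chains were mostly low, while HCST and some ITAM carriers were not. TYROBP and FCER1G averaged 10.3 and 6.28 CPM, beside the receptors OSCAR at 8.83, LILRA2 at 5.55, FCGR1A at 4.75 and SIRPB1 at 4.03 CPM. Of 18 receptors listed as partners of HCST, TYROBP or FCER1G, 7 had a mean of at least 1 CPM and 6 were under 0.1 CPM. KLRK1, which codes for NKG2D, the receptor served by HCST, was at 0.578 to 1.47 CPM. PILRB, an activating paired receptor, was the most abundant at 53.4 to 72.4 CPM, followed by OSCAR, a collagen receptor, at 5.79 to 17.2 CPM. Per kilobase, HCST averaged 62.6 CPM over the 9 libraries and PILRB 46.2, while OSCAR was at 6.51 and KLRK1 at 0.530. Among 10 other ITAM proteins, 5 had a mean of at least 1 CPM, led by FCGR2A, a low-affinity IgG receptor with an ITAM of its own, at 64.4 to 96.6 CPM, and CD79B, a chain of the B cell receptor complex, at 47.0 to 64.6 CPM. CD3E and CD3G had no count, which allows up to 0.0847 to 0.108 CPM per library. PILRB, FCGR1A, FCGR2A, FCGR2B, SIRPA, SIRPB1, KLRC2 and SIGLEC14 have close relatives in the genome, so their reads may be split between copies.

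**Figure D4:**
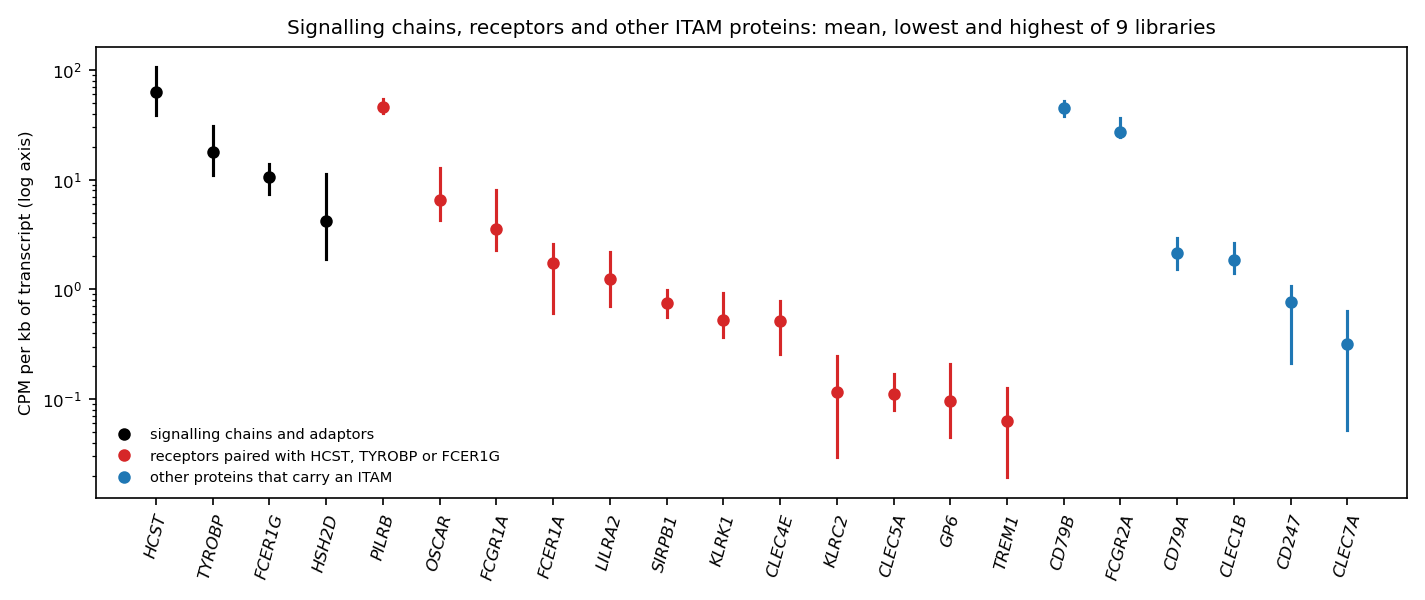
Level per kilobase of canonical transcript (CPM per kb, log axis) of the signalling chains and adaptors (black), the receptors paired with them (red) and other proteins with an ITAM (blue), where the point is the mean and the line runs from the lowest to the highest of 9 libraries. Genes with a mean under 0.1 CPM are left out. The mean of HCST (62.6) lies above that of every receptor, PILRB (46.2) is the highest of them, with a range that overlaps HCST, and KLRK1 (0.530) is far lower.

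Of 95 other genes listed for the pathway, 71 passed the filter, and none was called between any groups by edgeR with or without the block, with 2, 3 and 3 at an unadjusted p under 0.05 without the block for SH2 against EV, SH3 against EV and SH3 against SH2. Over all genes tested, 51.4%, 53.1% and 50.8% had a log2 fold change above 0 in these comparisons, in the same order. Of the 71, 28 were above 0 for SH2 against EV and 42 for SH3 against EV. For SH3 against SH2, 53 of the 71 were above 0, with a median of 0.13 against 0.0036 over all genes. By list this held for 14 of 19 inhibitors and phosphatases, 12 of 14 lipid-signalling and downstream effectors, 11 of 15 adaptors, 7 of 9 receptors, 6 of 8 kinases and 3 of 6 ITAM carriers. Among the most abundant, the SRC family kinase YES1 was at -0.26 and its regulator CSK at -0.08, the adaptor GRB2 at -0.02 and the exchange factor VAV1 at 0.19, the GTPase RAC2 at 0.19 and the kinase subunit PIK3R1 at 0.03. The phosphatases PTPN11 and PTPN6 were at -0.11 and 0.35. CD79B was at -0.17, FCGR2A at 0.14, PILRB at 0.06 and OSCAR at 0.39.

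Between replicate numbers more of the pathway differed. With number 1 against 13 and 25, 35 of the 71 genes rose and 8 fell, where 24.1% of all genes were called higher and 22.2% lower, and the median log2 fold change was 0.30 against 0.0074 over all genes. Of the lists, 5 of 9 receptors, 3 of 6 ITAM carriers, 4 of 8 kinases, 5 of 15 adaptors, 7 of 14 effectors and 11 of 19 inhibitors rose, and 1 kinase, 2 adaptors, 2 effectors and 3 inhibitors fell. The lists are small, and nothing particular to a list is read from these counts. Without SH3 number 1, 31 rose and 7 fell.

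The 3 largest rises were all of inhibitory receptors. FCGR2B, the inhibitory Fc receptor, was at 0.798 to 7.56 CPM in number 1 and 0.278 to 0.485 CPM in the others (log2 fold change 2.70, SE 0.52, adjusted p = 0.00266 by edgeR), and without the SH3 library numbered 1, its highest, the value was 1.26. CD22, a sialic acid-binding inhibitor of B cells, was at 1.34 to 3.37 CPM against 0.0347 to 0.816 CPM, with 1 count in its lowest library (2.47, SE 0.46, adjusted p = 0.00233). Without SH3 number 1 it was at 1.69. CD72, also a B cell inhibitor, was at 2.24 to 7.97 CPM against 1.04 to 2.08 CPM (1.60, SE 0.28, adjusted p = 0.00161), and at 0.99 without that library. These 3 are of low abundance.

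The largest falls were smaller in size. SIRPA, an inhibitory receptor of myeloid cells that binds CD47, was at 16.7 to 21.2 CPM in number 1 and 22.8 to 32.1 CPM elsewhere (log2 fold change -0.57, SE 0.08, adjusted p = 0.000616 by edgeR). PTPN11, the phosphatase SHP2, changed by -0.31 (SE 0.07) and MALT1, a protease on the route to NF-κB, by -0.29 (SE 0.07), with adjusted p of 0.00415 and 0.00635. Of the abundant genes named above, PILRB, OSCAR, FCGR2A and PTPN6 also rose, by 0.22, 0.77, 0.24 and 0.26, GRB2 and YES1 fell, by 0.29 and 0.19, and CSK, VAV1, RAC2, PIK3R1 and CD79B did not pass. Between numbers 25 and 13, 6 of the 71 fell and none rose, where 3.1% of all genes were called lower and 2.77% higher. The 6 were DOK3, NFATC2, PAG1, PIK3CG, PIK3R1 and SRC, of which PIK3R1 alone is among the genes named by the fixed rule. None of these calls remained when EV 25, SH2 13 or SH2 25 was left out.

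Over the 9 libraries, the profile nearest to that of HCST, among 12641 genes with a mean of at least 1 CPM, was that of GPR56, an adhesion receptor, with a mean absolute difference of centred log2 CPM of 0.0497 per library, where HCST itself deviated from its mean by 0.305. NPC2, a cholesterol carrier of the lysosome, followed at 0.0828 and MIR4709 at 0.0976. The MIR4709 row lies within NPC2 on the same strand, so the 2 may share reads. GPR56 was at 6.16, 5.14 and 3.97 CPM in EV, 6.23, 4.83 and 3.50 CPM in SH2 and 10.8, 6.39 and 5.17 CPM in SH3, and so repeats the order of HCST in each group. Of the other members, TYROBP ranked 8 and FCER1G 19 by this measure, and HSH2D 5293. The measure also counts the size of the swings, which were wider for HSH2D, so its rank does not mean a different order of libraries. Ranked by distance from the profile of HSH2D, HCST was at 189 and TYROBP at 213.

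For HSH2D the nearest were SELPLG, the selectin ligand PSGL-1, at 0.130, the ring finger gene RNF175 at 0.138 and the zinc finger gene ZNF395 at 0.141, with a deviation of HSH2D itself of 0.600. SELPLG was at 21.4, 12.7 and 11.7 CPM in EV, 21.6, 11.6 and 9.25 CPM in SH2 and 43.3, 15.3 and 16.5 CPM in SH3. All 6 of these genes were highest in SH3 number 1, the library that stands apart, so the profiles share that peak.

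**Figure D5:**
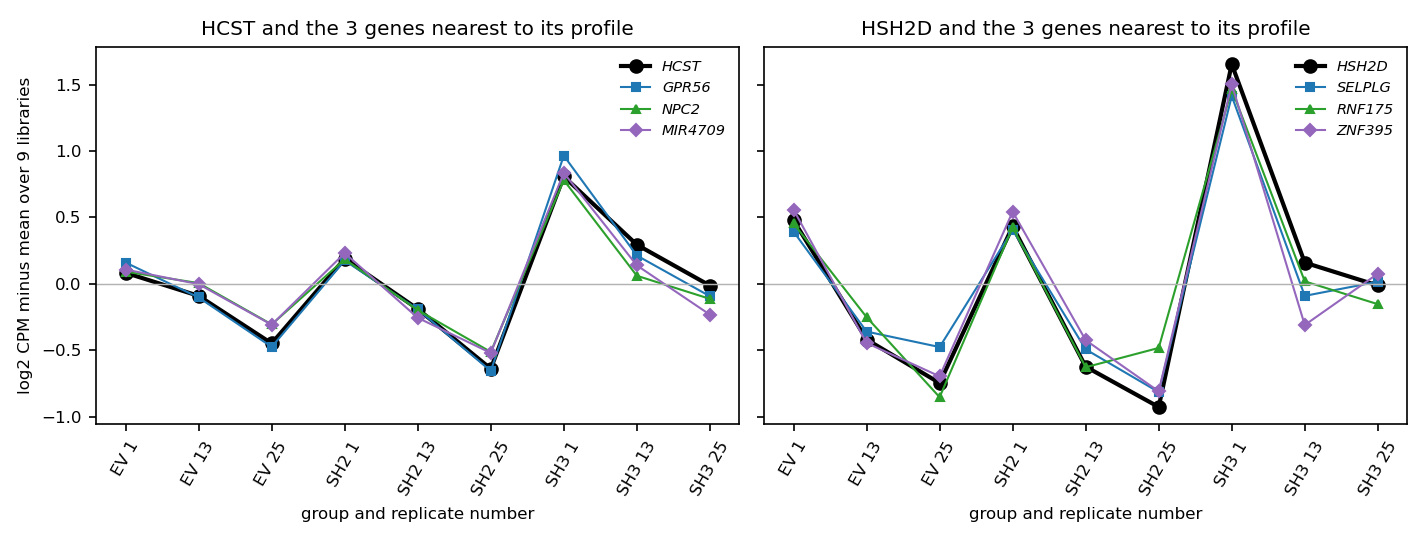
Log2 CPM minus the mean over 9 libraries (vertical axis) for HCST (left, black) and HSH2D (right, black) and the 3 genes nearest to each, by group and replicate number on the horizontal axis, with lines that only join the points of a gene. Each gene peaks in SH3 number 1, and HSH2D departs from its mean more widely than HCST does (mean absolute deviation 0.600 against 0.305).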

How the data were processed

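The authors deposited unnormalized read counts for each RefSeq transcript, made with tools the submitters' processing notes name as STAR, featureCounts and DESeq2 on hg19, without roles. Poly(A) libraries were unstranded per the study's methods. Each file held 48104 rows, and 9509 symbols had more than 1, of which the row with the highest total was kept, so a shift between isoforms could move a count. CPM used library sizes scaled by trimmed mean of M values (TMM). The edgeR 4.0.16 quasi-likelihood test (R 4.3.3) was applied with filterByExpr (minimum count 10, minimum total 15), all 9 samples, 1 coefficient per group and Benjamini-Hochberg adjustment over 14199 genes, with a threshold of 0.05. The SE was the log2 fold change over the root of its F statistic. The numbers 1, 13 and 25 were tested in the same kind of fit with group and number as factors. Fits were tested on simulated data.

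Groups came from the labels. The shared replicate numbers were checked by correlating deviations from group means: 0.398 to 0.731 over 9 same-numbered pairs and -0.616 to 0.306 over 18 others, so the numbers pair the samples. The alternatives were the block, a transcript-length offset, other scalings and filters, DESeq2 1.42.0, the mean of a symbol's rows and leaving out libraries. Alternatives with the block on genes with a length only, and without number 1 samples, were added after seeing the data. The 8 genes, gene lists and rules were chosen with earlier results of these data known. Genes named from the lists were the 2 most abundant per list, any called between groups with or without the block, the 3 largest called rises and falls between number 1 and the others, and the 3 genes nearest in profile to HCST and HSH2D. Floors cover counting error only, as reads carried no molecular identifiers. Positions are from GENCODE on GRCh37 and promoters from RefSeq on GRCh38.p14, where HSH2D and LYN have no window used here. Motifs were searched in 250-base windows.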

Additional observations from a re-analysis of the deposited data

Results flagged for a closer look

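For both TYROBP and HSH2D, SH2 was below EV and SH3 above EV at every number. Of all genes tested, 24.5% had the first pattern and 20.2% the second. The share with both was not counted, and these shares do not give it, since both patterns use the EV libraries. Some steps were small: SH2 minus EV was -0.03 and -0.05 at number 1, and SH3 minus EV was 0.05 for TYROBP at 13. Over 22 alternatives, the log2 fold change of SH2 against EV ran from -0.46 to -0.04 for TYROBP and from -0.64 to 0.32 for HSH2D. The mean difference of SH2 and EV within numbers was -0.198 for TYROBP and -0.142 for HSH2D on the log2 scale, lower in 3 of 3 numbers, while that of SH3 and EV was 0.341 and 0.823, higher in 3 of 3. This difference was not tested on data other than the comparisons that chose the genes, so no p value is given for it.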

How the results depend on the processing

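Depth limits HSH2D, FCER1G and TYROBP most, and 3 libraries per group limit every comparison. Between groups, the count of genes called for SH2 against EV, SH3 against EV and SH3 against SH2, 0 without the block, was 40, 59 and 15 with the replicate block, 9, 46 and 17 with the block and a transcript-length offset, 37, 94 and 9 with the block on genes with a length, 267, 341 and 129 with the block and without number 1 samples, 25, 26 and 11 by DESeq2, and 374, 474 and 152 by DESeq2 with the block. Leaving out libraries gave 0 to 1 for SH3 against EV, where the 1 came without SH3 number 1, and 0 for the others. Other pathway genes, 0 without the block, were 1, 2 and 2 without number 1 samples (CD22; LAT2 and YES1; PTPN22 and YES1), 2, 1 and 4 by DESeq2 with the block (CBL and NFATC2; LAT2; LAT2, PTPN22 and PTPN6 among the 4), and 1 (LAT2) for SH3 against EV on genes with a length. They were named after their values were seen. The replicate block alone changed no call of another pathway gene in edgeR.

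ASXL2, at -1.03 and -1.12 (adjusted p 0.808 and 0.612) for SH2 and SH3, passed the threshold in the edgeR block fit at -1.04 and -1.13 (adjusted p 0.00469 and 0.00407), with the offset at -0.82 and -0.96, on genes with a length at -1.04 and -1.14, without number 1 samples at -0.97 and -1.04, by DESeq2 at -1.03 and -1.12, and by DESeq2 with the block at -1.04 and -1.14, while libraries left out gave -1.10 to -0.95 and -1.32 to -1.01.

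Over 22 alternatives the members' fold changes between groups stayed within 1 SD of the 3 within-number differences in 491 cases. They moved further in 37. For SH3 against SH2, 4 alternatives moved HCST, 5 moved HSH2D and 4 moved TYROBP. Their log2 fold changes ran from 0.32 to 0.80, 0.33 to 1.57 and 0.24 to 0.82. Between numbers, over 14 alternatives, 195 kept direction and side of the threshold, 12 lost the call, 4 gained it and 13 changed sign, all 13 of values near 0. PLCG2 for number 1 was -0.0071 with no filter and -0.0313 to 0.0446 with libraries left out, LYN was -0.0056 to 0.21, and for 25 against 13 PLCG2 was 0.0012 with relative log expression factors and by DESeq2, 0.00044 with the mean of rows and -0.0566 to 0.0937 with libraries left out, and BTK -0.0359 to 0.101. Genes called for 25 against 13, 833 in all libraries, ranged from 50 (without EV number 25) to 2750 (without SH3 number 1), and other pathway genes from 0 to 14, so calls there depend on single libraries. For number 1 they ranged from 4813 to 6282 and from 33 to 40.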
